A study of Mus musculus with 24 samples.

Results

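Skeletal muscle fires and relaxes through sodium, potassium and chloride channels of the fiber membrane, and 7 genes of this group were described here in an optogenetic muscle culture: Scn4a, Clcn1, Kcnj2, Kcnj11, Kcnk13, Kcnn3 and Kcna7. The members were chosen by gene name, and Kcnk13 was selected on its rise at every stimulation frequency in these same libraries, so its difference from control is given as a description without a test. All 7 were found in the table of 56941 genes, and 5 of the 7 passed the filter on low counts that left 13318 genes for testing. Clcn1 and Kcna7 did not pass it.

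The cultures were made from C2C12, a mouse myoblast line that fuses into multinucleated myotubes, and every culture, controls included, carried the ChR2::tdTomato transgene, a light-gated cation channel fused to a red fluorescent protein. The cells were grown on a fibrin hydrogel, differentiated in medium with horse serum and IGF-1, and given light pulses for 30 min per day at 1, 4 or 10 Hz, while controls received none. Each of the 4 conditions had 6 libraries from separate cultures of the 1 line, so p-values measure the spread between cultures and not between animals. Cultures without light also twitched on their own, as the study describes. The comparisons ask how stimulation frequency changed muscle RNA after daily training.

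An action potential in muscle opens the voltage-gated sodium channel encoded by Scn4a. Repolarization and a stable resting potential then depend on potassium channels and, in adult fibers, on the large chloride conductance of the channel encoded by Clcn1. Kcnj2 encodes an inward rectifier that holds the resting potential, Kcnj11 the pore of the ATP-sensitive potassium channel, Kcna7 a voltage-gated potassium channel of striated muscle, Kcnn3 a small-conductance calcium-activated potassium channel known from immature and denervated muscle, and Kcnk13 a two-pore potassium channel of the halothane-inhibited kind that passes background current.

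On GRCm39, with GENCODE M39 as annotation, Scn4a lay on the minus strand at chr11:106208370-106256385 with 24 exons in its canonical transcript. Kcnj2 lay on the plus strand at chr11:110956981-110967665 with 2 exons. Kcnn3 lay on the plus strand at chr3:89427460-89582439 with 8 exons, and Kcnk13 on the plus strand at chr12:99924948-100028942 with 3 exons. Kcnj11, a gene of 1 exon, lay on the minus strand at chr7:45743377-45750188, and Kcna7, with 2 exons, on the plus strand at chr7:45055077-45061072. Clcn1 lay on the plus strand at chr6:42263595-42292718 with 23 exons. Exons of Scn4a overlapped annotated exons of Prr29, those of Clcn1 overlapped Fam131b, and those of Kcnj2 overlapped Gm57334. The sources used here do not say if counting took strand into account, so reads in these overlaps may be shared.

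The promoter stretches of Kcnk13 and Kcnn3 are printed because these potassium channel genes moved together across the 24 libraries (Pearson r of log2 CPM 0.84). The sequences were read from GRCm39 within the 250 bases upstream of the canonical start, leaving out bases in any annotated exon, and are printed on the coding strand. Capitals mark the E-box CANNTG, the letters that myogenic bHLH factors are known to bind.
Kcnk13, chr12:99930492-99930666, plus strand: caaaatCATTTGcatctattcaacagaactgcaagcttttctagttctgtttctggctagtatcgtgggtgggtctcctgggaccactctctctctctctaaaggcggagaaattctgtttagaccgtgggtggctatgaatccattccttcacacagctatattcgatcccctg
Kcnn3, chr3:89427210-89427459, plus strand: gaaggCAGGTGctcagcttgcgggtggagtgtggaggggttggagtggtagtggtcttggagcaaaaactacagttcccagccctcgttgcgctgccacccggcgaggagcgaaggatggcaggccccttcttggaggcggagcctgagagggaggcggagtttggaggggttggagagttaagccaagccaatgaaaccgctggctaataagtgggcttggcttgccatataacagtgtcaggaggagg
The full window of Kcnk13 held 2 E-boxes, at 244 and 56 bases upstream, and that of Kcnn3 held 1, at 245 bases. The same letters, read on both strands, were present in 64.8% of the 21757 promoters of protein-coding genes of this length, so a match is common. Kcnj2, which passed the test in no comparison, held 2, of which 1 was CAGCTG, a form found in 11.9% of promoters. The window of Scn4a held none and lies inside an exon of other annotated Scn4a transcripts, so it is not printed. AP-1 TGANTCA, found in 6.18% of promoters, and TGACG, found in 18%, matched no window of the 7. GGAAA, found in 58%, matched that of Kcnj11 alone, and MEF2, found in 0.506%, that of Clcn1 alone. These matches describe letters in a window and not binding.

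The libraries held 4.09 to 15.2 M counts (median 7.48 M). CPM, the counts of a gene as parts of 1 M counts of its library, were scaled with TMM factors and compare a gene between libraries, while TPM, the same for transcripts, also account for transcript length and compare genes. The labelled muscle cells were checked by markers: all 10 myotube markers were present in all 24 libraries, with a mean of 4300 TPM for Acta1 and 922 TPM for Des. Ptprc, Snap25 and Tyrobp, which define leukocytes, neurons and myeloid cells, were at 0 in 23 of 24 libraries, and Emcn, of endothelium, was at 0 in 24. Of the other neuron genes, Stmn2 averaged 39 TPM and Gap43 6.61 TPM. Of the other macrophage and microglia genes, Csf1r averaged 0.453 TPM and Cx3cr1 1.7 TPM.

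The composition of the libraries moved with condition. The summed level of the 10 myotube markers was 7530 to 9390 CPM in controls, 11200 to 15100 at 1 Hz, 11500 to 17400 at 4 Hz and 7800 to 12300 at 10 Hz. It was higher than control at 1 Hz and at 4 Hz (2-sided exact permutation test, p = 0.00216, the smallest this design allows, adjusted p = 0.00487 over 9 tests, higher in 6 of 6 libraries each) and not past the threshold at 10 Hz (adjusted p = 0.0612). The share of short RNAs that carry no poly(A) tail, such as Rn7sk and Rmrp, was 96.5 to 167 CPM in controls, 14.7 to 69.4 at 1 Hz and 18.4 to 49.9 at 4 Hz, without overlap (exact permutation test, adjusted p = 0.00487 each). It ran from 37.1 to 272 at 10 Hz (adjusted p = 0.877). Total counts averaged 5.67 ± 1.33 M in controls, 8.17 ± 3.98 M at 1 Hz, 9.13 ± 1.68 M at 4 Hz and 8.19 ± 2.39 M at 10 Hz (SD, n = 6 each, exact permutation test against control, adjusted p = 0.207, 0.00779 and 0.0612). The labels state that some low-input samples were ribodepleted and do not say which. Because the share does not overlap between control and either 1 or 4 Hz, it cannot be told apart from the stimulation there, and in a bulk sample fewer myotubes and less RNA per myotube cannot be told apart either.

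On the TPM scale Kcnn3 was the most abundant, with a mean of 16.7 TPM over the 24 libraries, followed by Scn4a at 10.1 and Kcnk13 at 7.53. Kcnn3 exceeded Scn4a in 24 of 24 libraries, and Scn4a exceeded Kcnk13 in 20 of 24. Kcnj2 stood apart below them at 1.85 TPM, under Kcnk13 in 24 of 24 libraries. Kcnj11 averaged 0.813 TPM, Kcna7 0.618 and Clcn1 0.331. Kcnj11 exceeded Kcna7 in 14 of 24 libraries and in 5 of 6 controls, so the order of these neighbors varied between libraries. Kcna7 exceeded Clcn1 in 19 of 24 but in 3 of 6 controls.

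**Figure D1:**
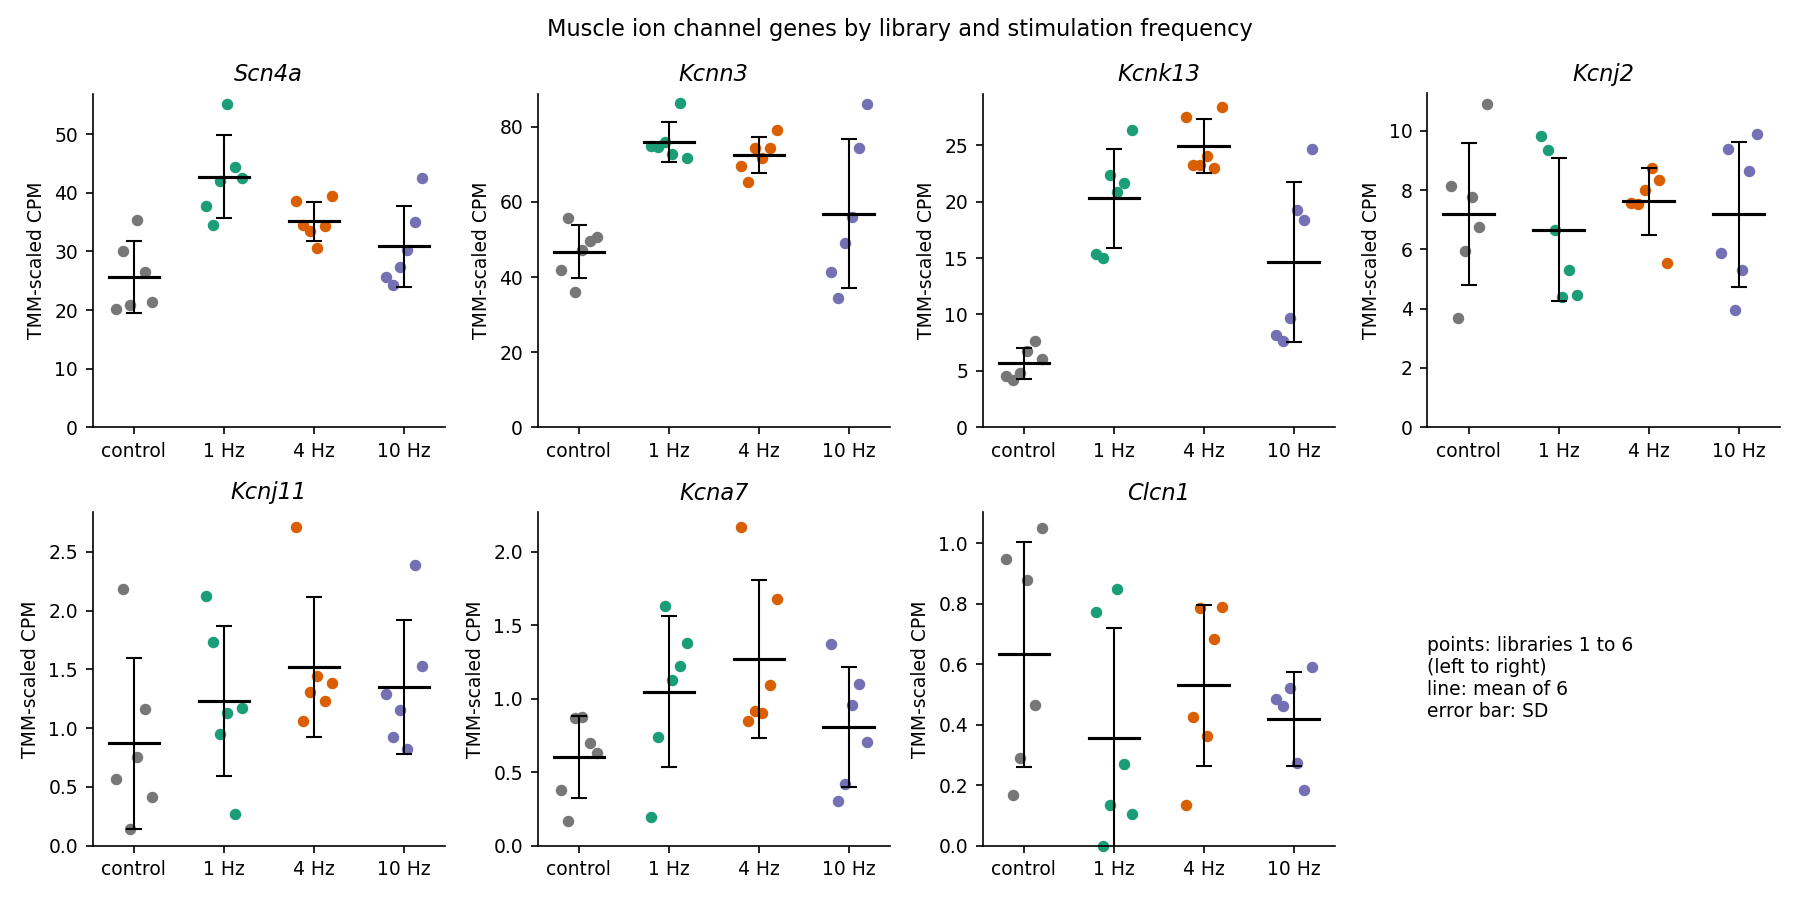
The level of each member in TMM-scaled CPM (y axis, linear from 0) by stimulation condition (x axis), with 1 point per library in replicate order, the mean as a line and the SD as an error bar, n = 6. Kcnk13 lies above every control library in all 18 stimulated libraries, Kcnn3 lies above every control at 1 and 4 Hz and spreads from 34.3 to 86.0 CPM at 10 Hz, Scn4a lies above every control in 5 of 6 libraries at 1 Hz, and the ranges of the other 4 genes overlap control.

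Kcnk13 was low in control and, in the fit, 3.65 times that level at 1 Hz, 4.41 times at 4 Hz and 2.57 times at 10 Hz. In controls it ranged from 4.19 to 7.67 CPM (median 5.43). It ranged from 15 to 26.4 CPM (median 21.3) at 1 Hz and from 23.0 to 28.4 (median 23.7) at 4 Hz. All 12 of these libraries lay above every control. At 10 Hz the libraries of replicates 1 to 6 gave 8.15, 7.69, 9.70, 19.3, 18.4 and 24.7 CPM. Those 6 also lay above every control, though the lowest was 7.69 CPM beside a highest control of 7.67, and replicates 1 to 3 lay below every 1 Hz library. Against a control mean of 5.67 ± 1.38 CPM (SD, n = 6), the means were 20.3 ± 4.38, 24.9 ± 2.40 and 14.6 ± 7.08 CPM. The fitted log2 fold changes from control were 1.87 at 1 Hz, 2.14 at 4 Hz and 1.36 at 10 Hz. These differences are what the gene was chosen for, so no p is given.

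The comparisons between frequencies were not used in choosing Kcnk13. Its level was lower at 10 Hz than at 4 Hz, by −0.78 ± 0.21 on the log2 scale (SE, edgeR quasi-likelihood test, adjusted p = 0.00996 over all genes) and 5 of 6 libraries at 10 Hz below every library at 4 Hz. In that comparison 5.32% of all tested genes were called higher and 5.64% lower, where called means an adjusted p below 0.05 and a log2 fold change beyond 0.5. Kcnk13 was the 1 member of 5 tested that was called, and DESeq2 also called 1. From 1 to 10 Hz the log2 fold change was −0.51 ± 0.22 (edgeR adjusted p = 0.0676), and from 1 to 4 Hz it was 0.28 ± 0.21 (edgeR adjusted p = 0.423, 95% interval −0.15 to 0.70), so neither passed the test. The 10 Hz against 1 Hz call was within reach of single libraries: without 10 Hz replicate 6 the log2 fold change was −0.73 (edgeR adjusted p = 0.00666). Without replicate 1 or 2 of 1 Hz, or replicate 4 of 10 Hz, it also passed, at −0.57, −0.57 and −0.60.

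Scn4a, the muscle sodium channel, rose at 1 Hz. It ranged from 20.1 to 35.3 CPM (median 23.9) in controls and from 34.5 to 55.2 (median 42.2) at 1 Hz, where 5 of 6 libraries lay above every control. The mean went from 25.7 ± 6.12 to 42.7 ± 7.08 CPM, which the edgeR fit put at 0.73 ± 0.14 on the log2 scale (SE, adjusted p = 0.00037). At 4 Hz it ranged from 30.6 to 39.5 CPM (median 34.4), and 2 of 6 libraries lay above every control. The log2 fold change of 0.45 ± 0.14 had an adjusted p of 0.0154 in edgeR but stayed within the fold limit. It passed without control replicate 2 (0.51) or control replicate 4 (0.57). At 10 Hz the 6 libraries gave 25.7, 24.3, 27.3, 30.3, 35.0 and 42.6 CPM, of which 1 lay above every control, and the log2 fold change was 0.25 ± 0.14 (edgeR adjusted p = 0.332, 95% interval −0.04 to 0.55). The difference between 10 and 1 Hz was −0.48 ± 0.14 on the log2 scale (edgeR adjusted p = 0.00926), just inside the fold limit, and it passed both limits without replicate 1 or 2 of 1 Hz or replicate 5 or 6 of 10 Hz (−0.51, −0.53, −0.52 and −0.60).

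Kcnn3, the calcium-activated potassium channel, rose at 1 and at 4 Hz without overlap. Controls ranged from 35.9 to 55.7 CPM (median 48.3), 1 Hz from 71.7 to 86.3 (median 74.7) and 4 Hz from 65.4 to 79.3 (median 73.1). All 12 libraries at these frequencies lay above every control. The means were 46.8 ± 7, 76.0 ± 5.27 and 72.5 ± 4.74 CPM. The log2 fold change was 0.70 ± 0.15 at 1 Hz (edgeR adjusted p = 0.000803) and 0.63 ± 0.15 at 4 Hz (edgeR adjusted p = 0.00154). At 10 Hz replicates 1 to 6 gave 41.3, 34.3, 49.0, 56.0, 74.4 and 86.0 CPM. Of these, 3 lay above every control and 1 below every control, and the SD of 19.8 CPM was wider than in any other condition. The log2 fold change at 10 Hz was 0.28 ± 0.15 (edgeR adjusted p = 0.301). Relative to 1 Hz it was −0.42 ± 0.15 (edgeR adjusted p = 0.0258), not past the fold limit, except that without 10 Hz replicate 5 it was −0.51 and without replicate 6 it was −0.59. Relative to 4 Hz it was −0.35 ± 0.15 (edgeR adjusted p = 0.0808), and −0.52 without 10 Hz replicate 6, which then passed.

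Kcnj2, the inward rectifier, did not pass the test at any frequency. Controls ranged from 3.69 to 10.9 CPM (median 7.25), 1 Hz from 4.38 to 9.83 (median 5.98), 4 Hz from 5.53 to 8.76 (median 7.78) and 10 Hz from 3.96 to 9.91 (median 7.27). The ranges overlapped in full. The log2 differences from control were −0.14 at 1 Hz (95% interval −0.65 to 0.37), 0.09 at 4 Hz (−0.41 to 0.59) and −0.01 at 10 Hz (−0.51 to 0.49), with edgeR adjusted p of 0.693, 0.792 and 0.99. A change within these intervals was not detectable at this depth. The sign of each of these differences turned under at least 1 other setting.

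Kcnj11, the pore of the ATP-sensitive channel, had between 1 and 20 counts per library. Controls ranged from 0.145 to 2.18 CPM (median 0.660), 1 Hz from 0.271 to 2.12 (median 1.15), 4 Hz from 1.06 to 2.71 (median 1.35) and 10 Hz from 0.819 to 2.39 (median 1.22). The groups overlapped throughout. The log2 fold changes from control were 0.42 ± 0.46, 0.80 ± 0.43 and 0.62 ± 0.44 (edgeR adjusted p = 0.494, 0.144 and 0.464). The 1 control library with 13 counts decided the 4 Hz value, which was 1.35 without control replicate 2 (edgeR adjusted p = 0.0204). The controls then held 1 to 6 counts each, and Kcnj11 passed the filter through the stimulated libraries, so this is no support for a change. The TPM of Kcnj11 did not follow its counts. Control replicate 4 had 6 counts and 1.91 TPM, while control replicate 2 had 13 counts and 1.14 TPM.

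Kcna7 and Clcn1 were near the counting limit. Kcna7 had 22 counts over the 6 controls, or 0.646 CPM of the summed total (95% exact Poisson interval 0.405 to 0.978, counting error only), 58 at 1 Hz, 66 at 4 Hz and 42 at 10 Hz. Its library values ranged from 0.168 to 0.877 CPM (median 0.662) in controls, 0.193 to 1.63 (median 1.18) at 1 Hz, 0.849 to 2.17 (median 1.01) at 4 Hz and 0.307 to 1.37 (median 0.832) at 10 Hz. In a fit without the filter, over 31472 genes, its log2 fold change at 4 Hz was 1.05 ± 0.46 (edgeR adjusted p = 0.123) and at 1 Hz 0.89 ± 0.47 (edgeR adjusted p = 0.234). Neither value passed the test. Clcn1 had 22, 15, 28 and 22 counts in control, 1, 4 and 10 Hz. Its range was 0.168 to 1.05 CPM (median 0.671) in controls, 0 to 0.847 (median 0.204) at 1 Hz, 0.135 to 0.790 (median 0.554) at 4 Hz and 0.184 to 0.590 (median 0.473) at 10 Hz. Its log2 fold changes from control in the unfiltered fit were −0.84, −0.20 and −0.50 (edgeR adjusted p = 0.424, 0.937 and 0.724). Differences of this size were not detectable at this depth.

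**Figure D2:**
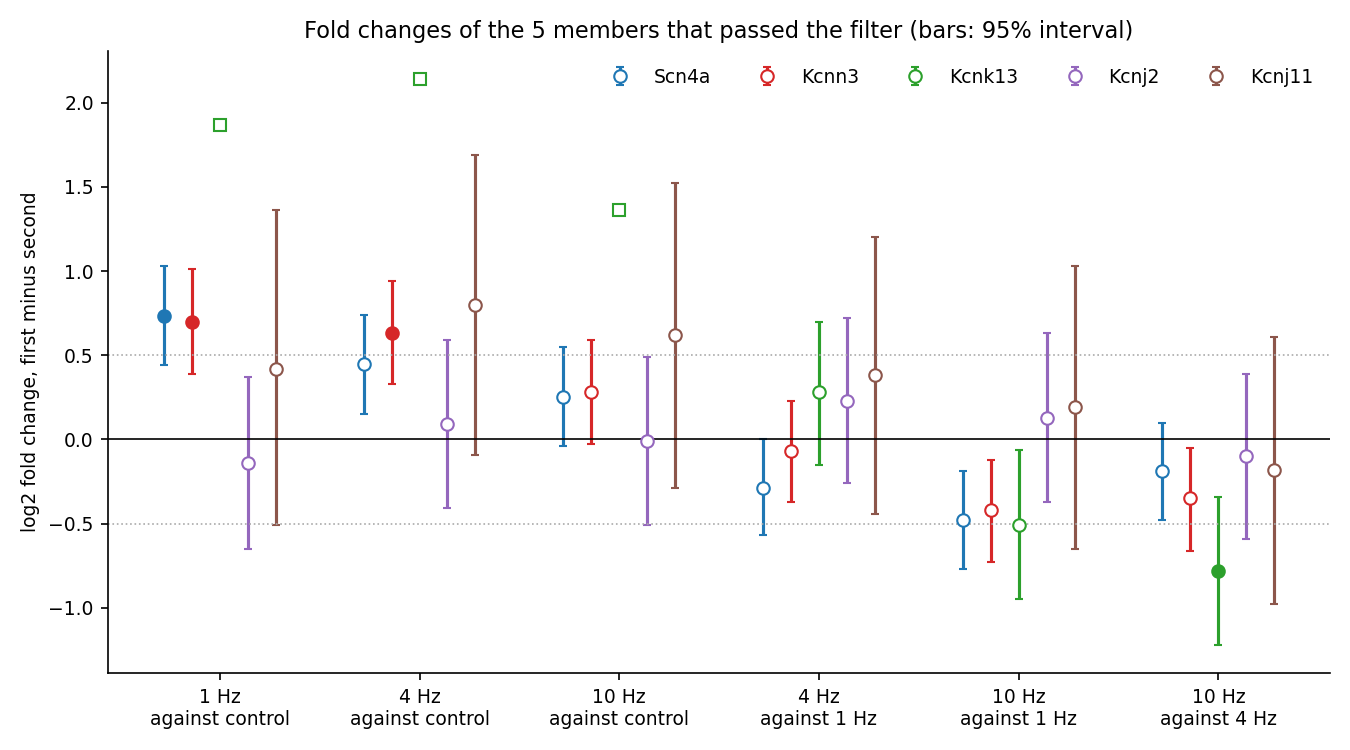
The log2 fold change (y axis, first condition minus second) of the 5 members that passed the filter in the 6 comparisons (x axis), with 95% intervals from the edgeR fit, filled circles for genes called and dotted lines at the fold limit of 0.5. Squares without an interval are Kcnk13 against control, which was chosen for these values, and the filled points are Scn4a and Kcnn3 at 1 Hz (0.73 and 0.70), Kcnn3 at 4 Hz (0.63) and Kcnk13 from 4 to 10 Hz (−0.78).

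Leaving Kcnk13 out, 2 of the 4 tested members were called at 1 Hz, both higher, where 9.34% of all genes were called higher and 8.99% lower. At 4 Hz 1 of 4 was called higher, beside 10.5% of all genes higher and 9.61% lower. At 10 Hz 0 of 4 were called by edgeR, 0 had an unadjusted p below 0.05 and DESeq2 called 0, beside 1.24% higher and 0.623% lower. Between 1 and 4 Hz edgeR called 0 of 5, with 1 at an unadjusted p below 0.05 and 0 by DESeq2, beside 1.59% higher and 1.4% lower. Between 1 and 10 Hz edgeR called 0 of 5, with 3 at an unadjusted p below 0.05, 0 by DESeq2 and 1 by limma on TPM, beside 9.45% higher and 8.49% lower at 10 Hz. The comparisons with control share the same 6 control libraries.

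Kcnk13, Kcnn3 and Scn4a moved together from library to library. Over the 24 libraries the Pearson correlation of log2 CPM was 0.84 for Kcnk13 and Kcnn3, 0.83 for Scn4a and Kcnn3 and 0.78 for Scn4a and Kcnk13. After the condition means were removed it was 0.73, 0.65 and 0.66. Kcnj2 did not move with them, at −0.20 with Scn4a and 0.06 with both Kcnk13 and Kcnn3. These values describe 24 libraries that also share composition and depth. Against the log2 small RNA share the correlation was −0.84 for Kcnk13, −0.85 for Kcnn3 and −0.79 for Scn4a over all libraries, and −0.68, −0.64 and −0.61 within conditions. For Kcnj2 it was 0.10 and 0.22.

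At 10 Hz the small RNA shares for replicates 1 to 6 were 176, 272, 110, 97.5, 65.5 and 37.1 CPM, so that replicates 1 to 4 lay within or above the control range and 2 lay below it. The library with the highest share had the lowest Kcnk13, Kcnn3 and Scn4a of the condition, and that with the lowest share had the highest of each. With the small RNA share as a covariate in the fit of all 24 libraries, edgeR called no tested member in any comparison, and none had an unadjusted p below 0.05 other than 2 between 1 and 4 Hz. Over all 13318 genes that fit called 1 at 1 Hz, 228 at 4 Hz, 204 at 10 Hz and 0 between 4 and 10 Hz, so at 1 Hz and between 4 and 10 Hz the members lost their calls with nearly all other genes. The log2 values were then 0.20 for Scn4a and 0.12 for Kcnn3 at 1 Hz and 0.06 for Kcnn3 at 4 Hz. Kcnk13, chosen for its rise over control, was at 0.84 at 1 Hz, 1.17 at 4 Hz and 1.14 at 10 Hz. What part the preparation of the libraries had in these differences was not tested.

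**Figure D3:**
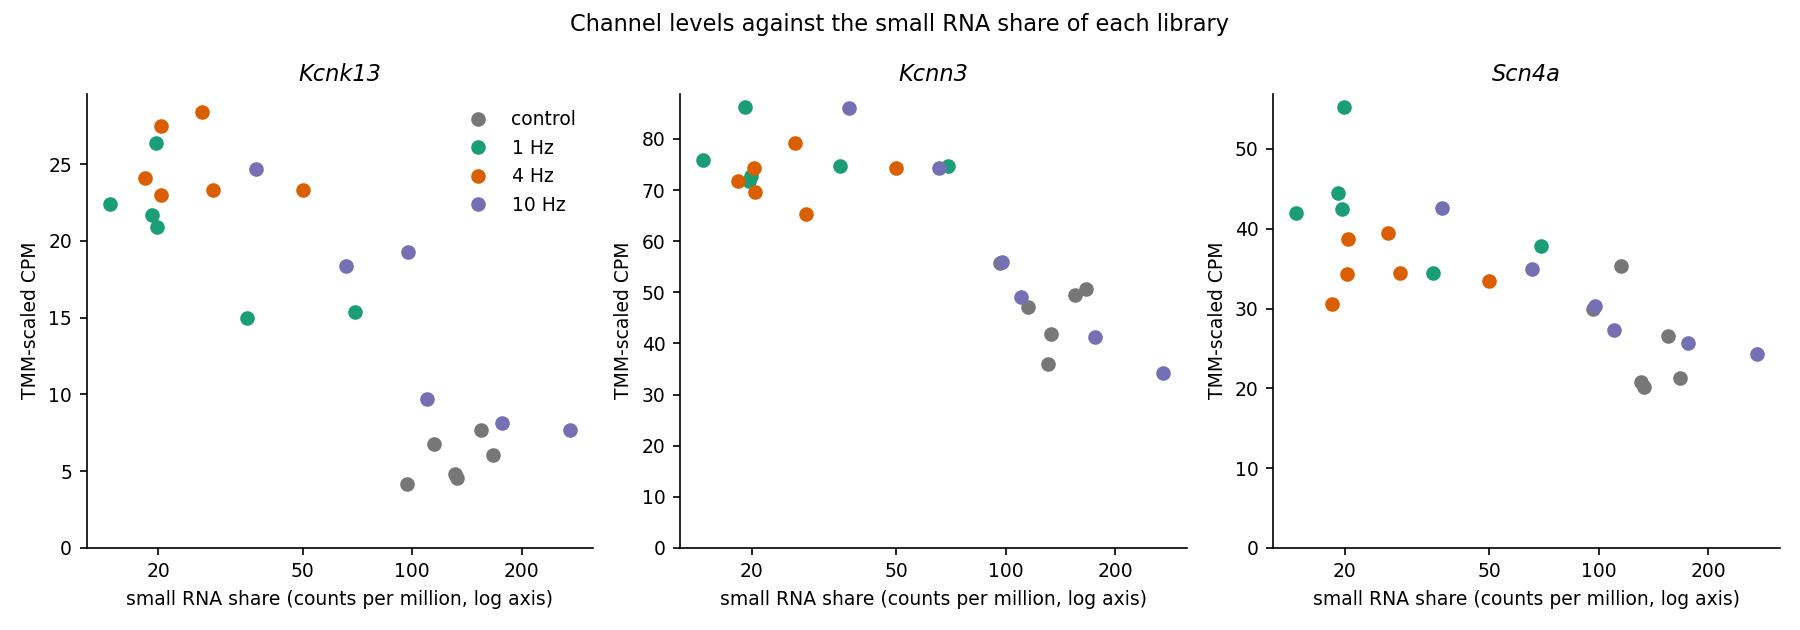
The level of Kcnk13, Kcnn3 and Scn4a in TMM-scaled CPM (y axis, linear from 0) against the share of small RNA without a poly(A) tail in the same library (x axis, CPM, log axis), with 1 point per library colored by condition. For Kcnn3 and Scn4a the 10 Hz points at shares of 97.5 to 272 CPM lie near the control levels. Kcnk13 lies above every control in all 10 Hz libraries, at 7.69 CPM at a share of 272 and 19.3 CPM at 97.5. At a share of 37.1 the 10 Hz point lies within the 1 Hz range in each panel.

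Of the 10 myotube markers, 6 were called higher at 1 Hz, 6 at 4 Hz and 2 at 10 Hz, and Ckm, Ttn, Neb and Des were called at none. Acta1 alone gave a mean of 2890 CPM in controls, 4950 at 1 Hz and 5150 at 4 Hz, so it weighs most in their sum. Each member was also set against the 10 summed myotube markers of its library, in CPM per 1000 CPM of markers, a scale added after seeing the data. On that scale Scn4a was 3.10 ± 0.670 in controls, 3.33 ± 0.339 at 1 Hz, 2.63 ± 0.293 at 4 Hz and 3.16 ± 0.444 at 10 Hz (SD, n = 6), and no stimulated library lay above every control. At 4 Hz 2 of 6 libraries lay below every control. Kcnn3 was 5.68 ± 1.03, 6.02 ± 0.970, 5.43 ± 0.727 and 5.78 ± 1.56, with 1 library of the 18 above every control and 1 library at 10 Hz below every control. The ranges of both genes overlapped those of control at each frequency. Kcnk13 went from 0.681 ± 0.145 in controls to 1.58 ± 0.259 at 1 Hz, 1.86 ± 0.139 at 4 Hz and 1.46 ± 0.533 at 10 Hz. The 3 means are 2.32, 2.72 and 2.14 times the control mean, and 6, 6 and 4 of 6 libraries lay above every control. Kcnk13 was chosen for its rise over control, so these values are a description and no support for a difference from Scn4a and Kcnn3. Kcnj2 was at 0.634, 0.676 and 0.852 times control, with 3, 1 and 0 of 6 libraries below every control. The marker sum did not overlap between control and either 1 or 4 Hz, so a fit cannot separate it from the stimulation there. With the log2 marker sum as a covariate, the calls of Scn4a, Kcnn3 and Kcnk13 given above were lost. How many of all genes kept a call in that fit is not given here. Scn4a at 1 Hz was then 0.23 (edgeR adjusted p = 0.447), Kcnn3 was 0.39 at 1 Hz and 0.29 at 4 Hz (edgeR adjusted p = 0.276 and 0.418), and Kcnk13 was 1.03, 1.22 and 1.02 against control and −0.20 from 4 to 10 Hz (edgeR adjusted p = 0.594).

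**Figure D4:**
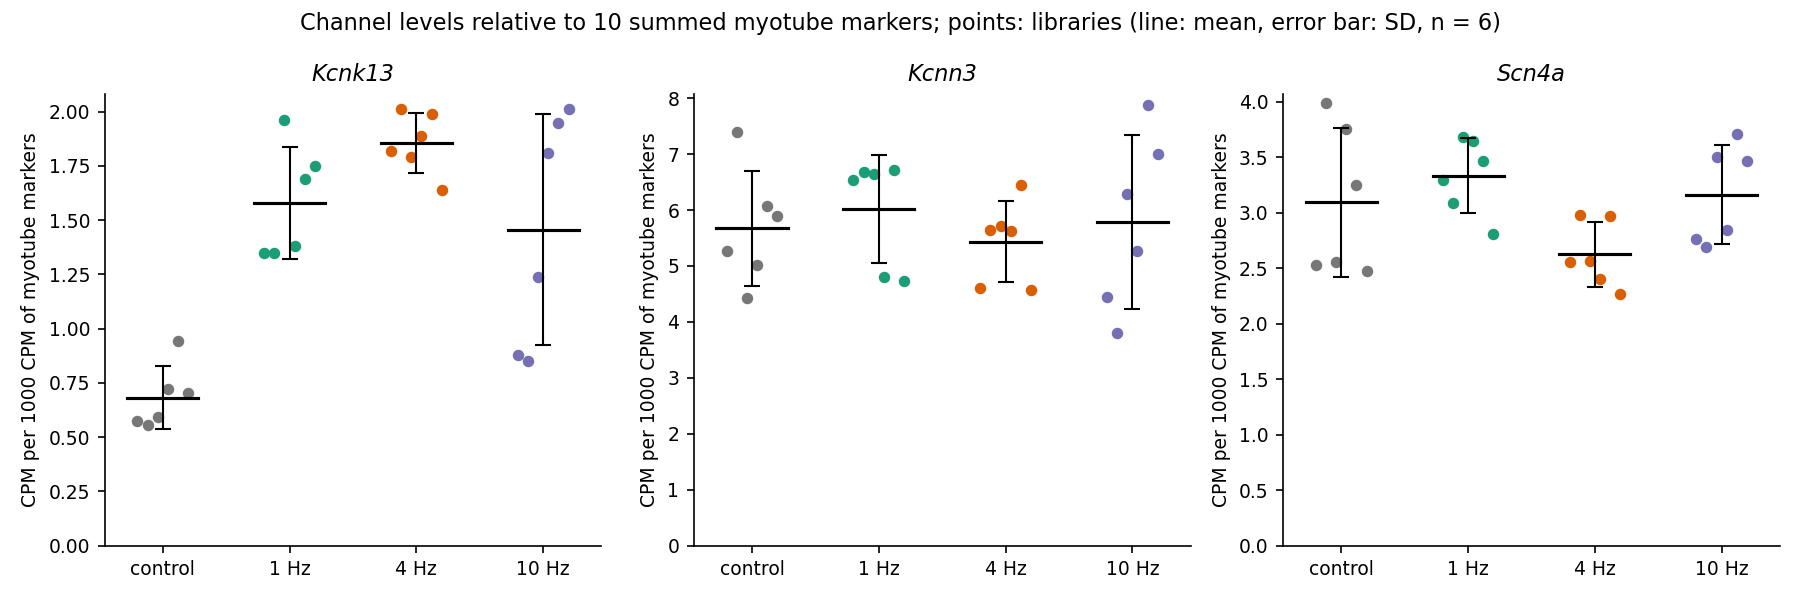
The level of Kcnk13, Kcnn3 and Scn4a in CPM per 1000 CPM of 10 summed myotube markers (y axis, linear from 0) by condition (x axis), with 1 point per library, the mean as a line and the SD as an error bar, n = 6. Kcnk13, which was chosen for its rise over control, lies above every control at 1 and 4 Hz and in 4 of 6 libraries at 10 Hz. Its means are 2.32, 2.72 and 2.14 times the control mean. The ranges of Kcnn3 and Scn4a overlap control at each frequency.

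The genes whose log2 CPM followed each member most closely over the 24 libraries, were taken from 10055 genes with at least 5 CPM on average. For Kcnk13 they were Itgb1bp2, Ank1 and Csrp3 (Pearson r of 0.96 each, and 0.84, 0.82 and 0.80 within conditions). Csrp3 encodes a LIM protein of striated muscle and Ank1 an ankyrin that links membranes to the cytoskeleton. For Kcnn3 they included Emp2 (0.95) and Filip1 (0.94). For Scn4a they were Nrap, a protein of forming myofibrils (0.90), Cdc42bpg (0.90) and Fam171a2 (0.89). The closest genes were less close for Kcnj2 (Fgfr1op2 0.74, Tceal8 0.72 and Atg3 0.71) and, among 10056 genes, for Kcnj11 (Sh3bgr 0.69, Mapk12 0.65 and Vsig10 0.64). Kcnk13 was chosen for its pattern, so its list is a description.

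Macrophage and microglia markers were counted because Kcnk13 is also known from microglia. The summed level of the 6 markers was 3.72 to 8.52 CPM in controls, 0.740 to 3.66 at 1 Hz, 1.88 to 3.96 at 4 Hz and 2.39 to 55.8 at 10 Hz. The defining genes Ptprc and Tyrobp were at 0 in 23 of 24 libraries and Adgre1 in 22. Of the rest of the list, Aif1 was at 0 in 15 libraries. Csf1r was present in all 24 (mean 0.453 TPM) and Cx3cr1 was at 0 in 1 (mean 1.7 TPM). Cx3cr1 reached 20.8 TPM in 1 library at 10 Hz. Against control, Cx3cr1 was called lower at 1 Hz (log2 −2.61) and Csf1r at 4 Hz (−1.33), beside 8.99% and 9.61% of all genes. Their means in those groups were 0.61 and 0.602 CPM, so both passed the filter through their other conditions. These folds are uncertain and no support for a change. Both were called higher at 10 than at 4 Hz (Cx3cr1 2.68 and Csf1r 1.36, edgeR adjusted p = 0.0075 and 0.0229), beside 5.32% of all genes. Cx3cr1 was at 11.3 ± 21.3 CPM at 10 Hz (SD, n = 6), where the 1 library at 20.8 TPM weighs most. Of the 10 Hz libraries, 2 of 6 lay above every 4 Hz library for Cx3cr1. Csf1r was again set against its low 4 Hz group, so its fold is uncertain too. The part of these markers in the Kcnk13 level was not tested. The glial and endothelial lists summed to at most 4.45 and 2.15 CPM, the fibroblast list to 50.4 to 92.3 and the neuron list to 45.3 to 78.7. The 6 myoblast genes summed to 118 to 202 CPM in controls and to 210 to 264 at 1 Hz, 185 to 277 at 4 Hz and 140 to 229 at 10 Hz, and their part in the channel levels was not tested.

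The members were set beside a list of 133 other sodium, potassium and chloride channel genes found in the table, of which 42 passed the filter. At 1 Hz 9 of the 42 (21.4%) were higher and 2 (4.76%) lower, beside 9.34% and 8.99% of all genes, with a median log2 fold change of 0.24 beside −0.01 over all genes. The 2 largest rises were Scn3a, a sodium channel best known from developing neurons, which went from 0.324 ± 0.223 to 1.42 ± 0.421 CPM (SD, n = 6, a log2 difference of 2.05), and Kcnc1, a fast delayed rectifier (1.32). The largest decreases were Best2, a calcium-activated chloride channel, which went from 2.72 ± 1.05 to 0.551 ± 0.337 CPM (−2.35), and Ttyh1 (−1.35). At 4 Hz 6 (14.3%) were higher and 2 lower, beside 10.5% and 9.61% of all genes (median 0.12), led by Scn3a (2.28) and Kcnc1 (1.81) and by Best2 (−1.55) and Clcn5, an endosomal chloride transporter (−0.77). At 10 Hz 1 was higher, Scn3a (2.46), and 1 was lower, Lrrc8c, a subunit of the volume-regulated anion channel (−0.57), with a median of −0.01. Each is 2.38% of the 42, beside 1.24% of all genes higher and 0.623% lower. Scn3a rested on few counts, with 0 to 4 per control library and 5 to 28 per stimulated library, and it passed the filter only through the stimulated libraries. Its values were called at all 3 frequencies in the edgeR fit without a filter, but not by limma on log2(TPM + 1), where the differences were 0.48, 0.28 and 0.23 (adjusted p = 0.198, 0.45 and 0.657). Kcnc1 had 1 to 6 counts per control library, Best2 1 to 6 per 1 Hz library and Kcna4 0 to 7 per 10 Hz library. No library of those groups reached 10 counts, so these genes passed the filter through their other conditions. Their folds against the group where they are low, and those of Scn3a, are uncertain and no support for a change. The counts of called channels include these genes. Those counts are calls by edgeR over all genes. With the small RNA share as a covariate 0 of 42 were called at 1 Hz (5 at an unadjusted p below 0.05) and 0 at 4 Hz (6 at an unadjusted p below 0.05). In that fit 0.00751% and 1.71% of all genes were called.

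Against 1 Hz, 10 Hz had 3 listed channels higher, 9 lower and 30 not called (median −0.26 beside 0.01 over all genes, with 9.45% of all genes higher and 8.49% lower), led by Best2 (2.01) and Best1 (1.27) and by Kcna4 (−2.59) and Ano1, a calcium-activated chloride channel (−1.72). Against 4 Hz 2 were higher, 7 lower and 33 not called (median −0.12, beside 5.32% of all genes higher and 5.64% lower), led by Best2 (1.21) and Clcn5 (0.64) and by Ano1 (−1.40) and Kcnc1 (−1.19). Ano1 was also low at 10 Hz, at 0.596 ± 0.124 CPM (SD, n = 6), beside means of 1.97 at 1 Hz and 1.62 at 4 Hz. It passed the filter through its other conditions, so its folds at 10 Hz are uncertain and no support for a change. Between 1 and 4 Hz edgeR called 0, with 6 at an unadjusted p below 0.05 and 0 by DESeq2, beside 1.59% of all genes higher and 1.4% lower. Among the voltage-gated potassium genes, 3 of 10 tested rose at 1 Hz and 3 at 4 Hz, and 4 of 10 were lower at 10 Hz than at 1 Hz, beside 9.34%, 10.5% and 8.49% of all genes. Of the 4 sodium channel genes tested, 2 rose at 1 Hz and 2 at 4 Hz, Scn3a among them each time, beside 9.34% and 10.5% of all genes. Among the 21 chloride genes, 2 rose and 2 fell at 1 Hz, near the 9.34% and 8.99% of all genes. At 4 Hz 0 chloride genes rose and 2 fell, beside 10.5% and 9.61% of all genes. None of the 3 tested inward rectifier and KATP subunit genes was called in any comparison. Kcnk5, the other two-pore channel that was called, rose at 1 Hz from 5.60 ± 1.61 to 9.62 ± 3.58 CPM. It was at 8.24 ± 1.37 at 4 Hz and at 4.19 ± 1.10 at 10 Hz, and neither was called against control. Kcnk5 is named outside the fixed rule, after its values were seen, as a family relative of Kcnk13.

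**Figure D5:**
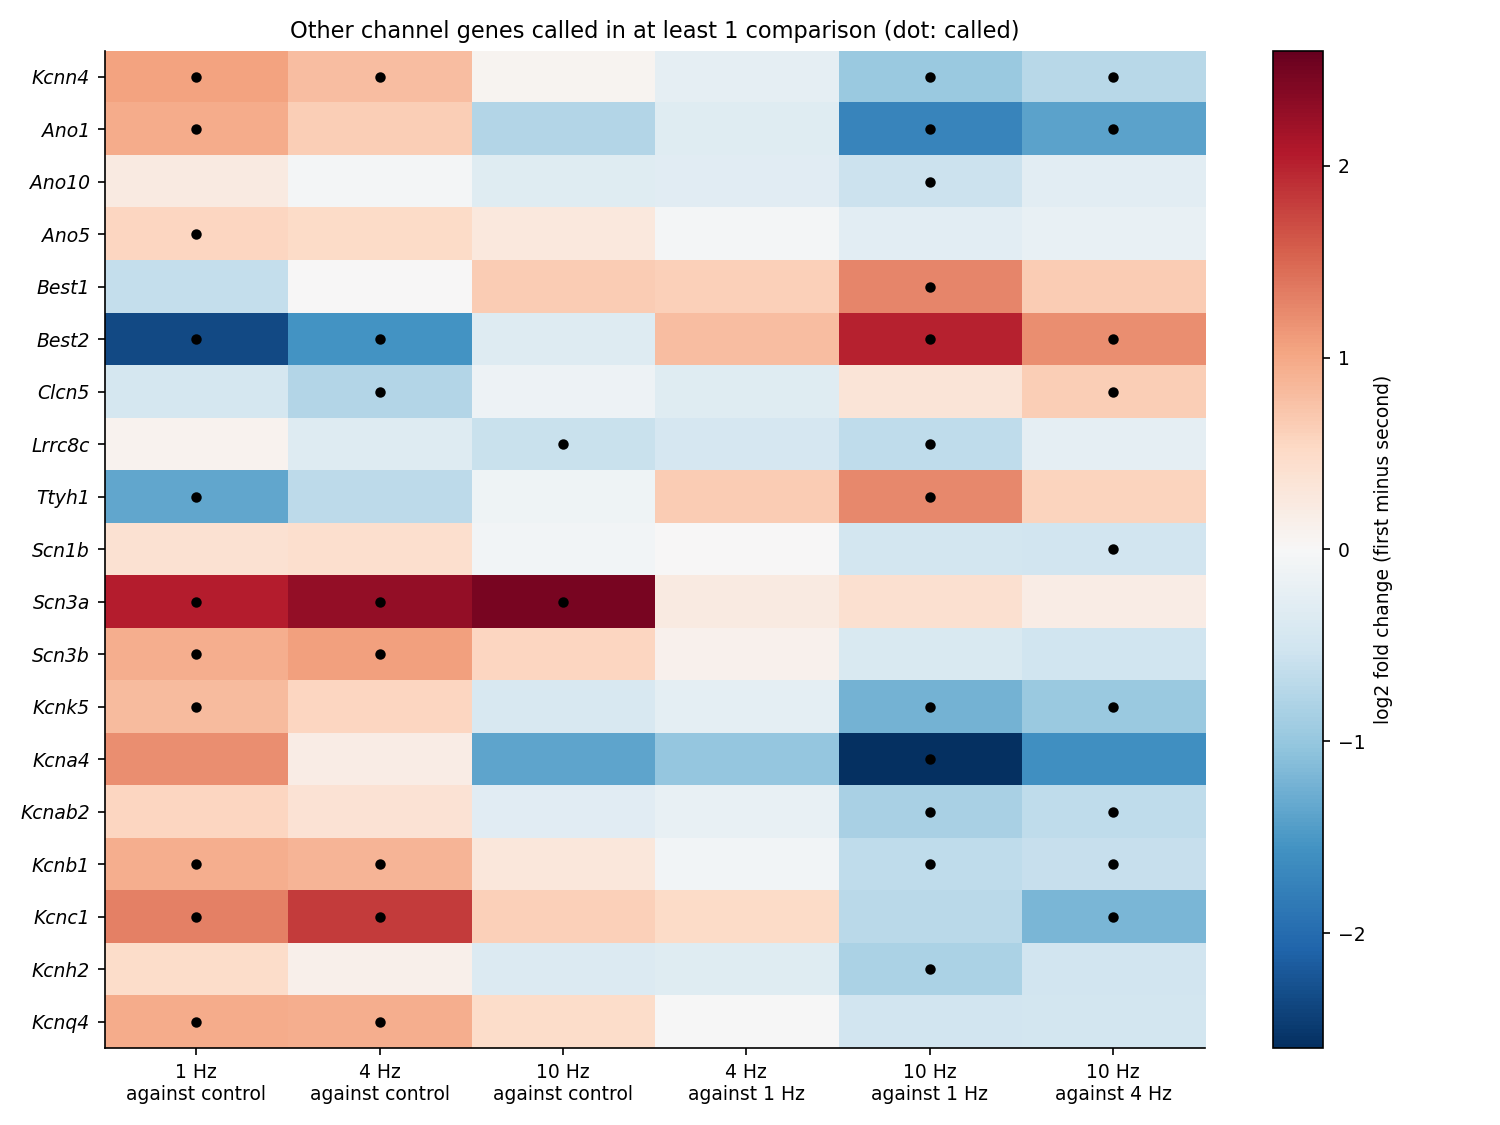
The log2 fold change (color, first condition minus second) of the 19 listed channel genes other than the members that were called in at least 1 of the 6 comparisons (x axis), with a dot where a gene was called. Scn3a, at 0 to 4 counts per control library, is called higher than control at 1, 4 and 10 Hz (2.05, 2.28 and 2.46), and between 1 and 10 Hz 9 of the listed genes are called lower and 3 higher.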

How the data were processed

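RNA was measured in 24 cultures, 6 per condition, grouped by sample title. The authors selected poly(A) RNA (low-input samples were ribodepleted), sequenced it paired-end and ran nf-core/rnaseq with STAR and Salmon on GRCm39. No source states the annotation release. The deposited tables hold Salmon estimated counts per gene, not normalized, and TPM from the authors. Estimated counts were rounded. Genes were filtered with filterByExpr by condition, leaving 13318 genes with 99.8% of counts. TMM scaling and the quasi-likelihood test (edgeR 4.0.16, R 4.3.3) used 1 fit of all 24 libraries, with Benjamini-Hochberg adjustment over all tested genes. Calls needed an adjusted p below 0.05 and a log2 fold change beyond 0.5. DESeq2 1.42.0, which the study used with shrinkage, and limma 3.58.1 on log2(TPM + 1) or log2(TPM + 0.1) were alternatives. The steps were tested on simulated data. Composition used exact permutation tests (SciPy). No 2 libraries of a condition agreed within sampling noise (chi-square per gene of at least 3.18 over 60 pairs).

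Members and lists were chosen with earlier results of these data known. Named genes are the 7 members, per comparison the 2 listed channels called with the largest log2 fold change each way, and per member the 3 genes with the highest correlation, of which 1 is not reported here. Alternatives also changed the scaling, the filter, the libraries in the fit and the covariates. Poisson intervals cover counting error only. The light-gated channel transgene was not analysed here.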

Additional observations from a re-analysis of the deposited data

Results flagged for a closer look

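Of the 28 groups of 6 libraries (7 members in 4 conditions), 2 held a library far from the others, where chance alone marks about 1 in 20 groups. Kcnj11 was 2.71 CPM in 4 Hz replicate 1, and the next library of that condition was at 1.44 CPM. Kcnn3 was 86.3 CPM in 1 Hz replicate 5, and the next was at 75.9 CPM. In each case the gap divided by the range (0.767 and 0.707) was above Dixon's 95% critical value for 6 samples.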

How the results depend on the processing

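Of the 1030 values of single members under an alternative setting, 959 kept their direction and side of the threshold or moved by less than the replicate SD, 36 reversed, 19 passed the threshold newly, 10 no longer passed and 6 moved. Counts of called members (2, 1, 0, 0, 0 and 1 at 1, 4 and 10 Hz against control, 4 against 1, 10 against 1 and 10 against 4 Hz) changed as follows. With the small RNA share as a covariate they were 0 at 1 Hz, 0 at 4 Hz and 0 for 10 against 4 Hz, and with the myotube marker sum as a covariate, chosen after seeing the data, likewise 0, 0 and 0. With the 10 Hz libraries below the control range of small RNA only, also chosen after seeing the data, they were 1 at 10 Hz and 0 for 10 against 4 Hz. The 2 libraries kept were also the 2 highest for Kcnn3 at 10 Hz, so that call adds nothing to the relation with the small RNA share. By adjusted p alone they were 2 at 4 Hz and 2 for 10 against 1 Hz. limma on TPM gave 0 at 4 Hz (pseudocount 1) and 1 for 10 against 1 Hz (either pseudocount), and no filter gave 1 for 10 against 1 Hz. Leaving out 1 library gave 1 to 3 at 4 Hz, 0 to 3 for 10 against 1 Hz and 1 to 2 for 10 against 4 Hz. The highest values came without control replicate 2 (3 at 4 Hz) and without 10 Hz replicate 6 (3 and 2). The 3 at 4 Hz include Kcnj11, which then passed the filter through the stimulated libraries, so its call is no support for a change. Without 1 Hz replicate 1 the count at 1 Hz was 3, since Kcna7 then passed the filter, through the stimulated libraries, and this is no support for a change in it.

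For the 42 listed channels (11, 8, 2, 0, 12 and 9 called in the same order), adjusted p alone gave 14 at 4 Hz, 5 at 10 Hz, 4 for 4 against 1, 19 for 10 against 1 and 14 for 10 against 4 Hz. The 12 libraries of a comparison alone gave 6 at 1 Hz, 0 at 10 Hz and 7 for 10 against 1 Hz. The small RNA covariate gave 0 at 1 and 0 at 4 Hz, 1 for 10 against 1 and 0 for 10 against 4 Hz, and the marker covariate 1, 4, 6 and 0. The 10 Hz libraries of low small RNA share gave 4 at 10 Hz, 7 for 10 against 1 and 0 for 10 against 4 Hz. limma gave 0 at 10 Hz, 1 for 4 against 1 and 3 or 4 for 10 against 4 Hz, while at 10 Hz no filter gave 1, DESeq2 1 and leaving out 1 library 1 to 2 (1 without control replicate 2 or 10 Hz replicate 3, 4 or 5).

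Reversed log2 values under the small RNA covariate were Scn4a −0.07 at 4 Hz and 0.24 for 10 against 4 Hz, Kcnj2 0.11 at 1 Hz, 0.03 at 10 Hz and −0.07 for 10 against 1 Hz, Kcnk13 0.30 and Kcnn3 0.03 for 10 against 1 Hz, and Kcnn3 0.09 for 10 against 4 Hz. Under the marker covariate they were Scn4a −0.11 at 4 Hz and 0.17 for 10 against 4 Hz, and Kcnj2 0.04 at 10 Hz. With the low small RNA libraries only, Scn4a was 0.14, Kcnn3 0.15, Kcnj2 0.29 and Kcnj11 0.35 for 10 against 4 Hz, Kcnk13 0.07 and Kcnn3 0.08 for 10 against 1 Hz and Kcnj2 0.39 at 10 Hz. Kcnj2 was 0 (total count) and −0.04 (limma) at 4 Hz and 0.01 without a filter at 10 Hz. Kcnj11 was −0.13 and −0.24 in limma at 1 Hz. TPM moved the median of all genes at 4 Hz by −0.16 or −0.18 and total count scaling by −0.11. The cause of these changes was not tested.

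With the replicate number as a block, members called for 10 against 1 Hz were 1 (Kcnk13, −0.55, edgeR adjusted p = 0.0146). Correlations of same-numbered libraries, after the condition means were removed, ranged from −0.18 to 0.36, with 10 of 36 above 0.1. They were not compared with those of differently numbered libraries, so this check cannot decide if the numbers pair samples. Leaving out 1 library gave a range through 0 for Kcnj2 at 1 Hz (−0.28 to 0.01), 4 Hz (−0.03 to 0.24), 10 Hz (−0.14 to 0.14) and 10 against 4 Hz (−0.22 to 0.03), and for Kcnj11 for 10 against 1 Hz (−0.02 to 0.39) and 10 against 4 Hz (−0.38 to 0.03).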
